A study of Arabidopsis thaliana with 12 samples.

Results

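The expression of 10 Arabidopsis genes that make, inactivate, release or import abscisic acid (ABA) was followed across 4 genotypes. They were chosen by their gene identifiers in the deposited table, as 10 of its 33323 genes: NCED2 (AT4G18350), NCED3 (AT3G14440), NCED5 (AT1G30100), ABA1 (AT5G67030), BGLU18 (AT1G52400), CYP707A1 (AT4G19230), CYP707A2 (AT2G29090), CYP707A3 (AT5G45340), CYP707A4 (AT3G19270) and ABCG40 (AT1G15520). RNA was sequenced from whole rosettes, labelled leaf, of plants grown in short days to 35 days after germination, with 3 libraries per genotype and an individual plant behind each. The genotypes were the wild type (WT, Col-0), the klu mutant, which is a T-DNA insertion line of Col-0 that lacks the cytochrome P450 KLU (CYP78A5), and the lines 35S:KLU1 and 35S:KLU2. Both lines carry a fusion of KLU to GFP in Col-0 under the 35S promoter, which is active in nearly all tissues, so they are not a model of KLU in the few cells that normally express it. The comparisons address how the loss and the excess of KLU bear on hormone genes. Expression is given as FPKM, the fragments mapped to a transcript, scaled by its length and by the mapped total of the library, and a difference is one of log2(FPKM + 1), which understates the change of genes at low FPKM. A gene is called a DEG at an adjusted p under 0.05 in limma, adjusted over all 19660 genes tested, and "rose" or "fell" is used of genes called in both lines in the same direction unless a line is named.

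ABA is made from plastid carotenoids. ABA1, the zeaxanthin epoxidase, supplies the epoxycarotenoids, the NCED dioxygenases cut them in the step that usually limits synthesis, and ABA2, AAO3 and the cofactor enzyme ABA3 complete the hormone. The CYP707A enzymes inactivate ABA by hydroxylation, glucosyltransferases such as UGT71B6 store it as a glucose ester, the beta-glucosidase BGLU18 releases it again, and ABCG40 carries it through the plasma membrane into guard cells, where ABA closes stomata.

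The labels held for the genotypes by the level of KLU and for leaf by the mesophyll markers, while klu replicate 1 was near 0 in the meristem markers. KLU was at 5.42 to 6.26 FPKM in Col-0, at 0.13 to 0.22 in klu and at 1728.75 to 2890.32 in the lines. The deposited values give no fragment counts, but their steps put the FPKM worth of 1 fragment at 0.886 to 1.459 times that in Col-0 replicate 1, with 35S:KLU2 replicate 2 the shallowest. The leaf mesophyll markers were abundant in all 12 libraries, with a summed level of 54230 to 76460 FPKM, and the flower markers were near 0, at 0.10 to 0.99 FPKM in sum. The library klu replicate 1 stood apart, with 0.11 FPKM summed over 5 shoot meristem markers against 14.2 and 15.61 in the other klu libraries and with STM at 0, while 0 of the 3 meristem markers tested were called in both lines. Without that library, STM and KNAT1 fell against klu by -0.81 ± 0.12 and -0.62 ± 0.11. The calls in both lines against klu that changed without klu replicate 1 are given beside the genes they concern. In whole rosettes, fewer cells of a type and less RNA per cell cannot be told apart.

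The 250 bases before the annotated start of the genes on which the results turn are printed here, so that their regulatory sequence can be read beside their expression. They are the 4 members that were both called in both lines and well above 0, and the pair CYP707A1 and CYP707A3. The sequences are from the RefSeq genome (TAIR10.1), read 5′ to 3′ on the strand of the gene, and capitals mark matches on either strand to ACGTG (the core of the ABA-responsive element), TTGAC (the W-box core), TGACG (the as-1 core), CCGAC (the core of the dehydration-responsive element) or CACGTG (the G-box, which contains ACGTG).
ABA1, chr5:26757403-26757652, minus strand: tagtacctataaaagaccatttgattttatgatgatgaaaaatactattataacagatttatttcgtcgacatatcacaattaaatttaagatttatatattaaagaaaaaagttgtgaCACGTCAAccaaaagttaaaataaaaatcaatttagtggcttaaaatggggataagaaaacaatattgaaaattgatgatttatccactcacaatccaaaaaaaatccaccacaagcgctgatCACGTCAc
NCED3, chr3:4834016-4834265, minus strand: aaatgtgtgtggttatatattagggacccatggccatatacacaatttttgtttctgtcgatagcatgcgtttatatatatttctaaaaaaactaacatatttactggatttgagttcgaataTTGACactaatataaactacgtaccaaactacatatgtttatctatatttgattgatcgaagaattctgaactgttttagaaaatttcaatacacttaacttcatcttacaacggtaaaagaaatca
BGLU18, chr1:19514739-19514988, plus strand: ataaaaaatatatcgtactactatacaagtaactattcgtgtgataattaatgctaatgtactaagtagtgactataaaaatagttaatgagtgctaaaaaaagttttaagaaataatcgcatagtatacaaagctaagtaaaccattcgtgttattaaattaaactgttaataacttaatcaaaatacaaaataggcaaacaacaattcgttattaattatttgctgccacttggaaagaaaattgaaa
ABCG40, chr1:5338327-5338576, minus strand: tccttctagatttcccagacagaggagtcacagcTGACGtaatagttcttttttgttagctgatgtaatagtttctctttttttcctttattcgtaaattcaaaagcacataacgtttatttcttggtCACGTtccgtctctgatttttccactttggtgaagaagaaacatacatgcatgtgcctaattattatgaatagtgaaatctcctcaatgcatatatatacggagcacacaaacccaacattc
CYP707A1, chr4:10521009-10521258, plus strand: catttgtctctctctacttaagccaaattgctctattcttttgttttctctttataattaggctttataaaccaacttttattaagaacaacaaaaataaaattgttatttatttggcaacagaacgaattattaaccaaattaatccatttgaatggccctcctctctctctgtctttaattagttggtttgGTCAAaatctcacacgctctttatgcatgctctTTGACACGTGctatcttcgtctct
CYP707A3, chr5:18371022-18371271, minus strand: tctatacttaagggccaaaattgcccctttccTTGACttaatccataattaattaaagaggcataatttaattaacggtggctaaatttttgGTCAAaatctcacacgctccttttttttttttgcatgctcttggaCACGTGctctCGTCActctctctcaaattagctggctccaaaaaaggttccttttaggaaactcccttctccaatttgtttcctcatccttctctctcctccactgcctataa
Among the windows of the same length before all 27443 protein-coding genes, 22.9% held ACGTG, 44.9% TTGAC, 18.6% TGACG, 12% CCGAC and 6.5% CACGTG. The window of BGLU18 held none of the 5 motifs, and that of NCED3 held a single TTGAC, with its first base 127 bases before the start. The window of ABA1 held ACGTG at 131 and at 8 bases before the start, each overlapping a TGACG, and TTGAC at 128. The window of ABCG40 held ACGTG at 122 and TGACG at 216 bases before the start. CACGTG was found in the windows of CYP707A1 and CYP707A3, at 20 and 113 bases before the start. TTGAC lay at 57 and 24 bases before CYP707A1 and at 218 and 158 before CYP707A3, which also had TGACG at 103. These 2 windows also shared tttgGTCAAaatctcacacgctc, a run of 23 identical bases that begins 61 bases before CYP707A1 on chromosome 4 and 162 bases before CYP707A3 on chromosome 5. The next longest run among the 45 pairs of member windows had 11 bases. A match of such short letters is a description and not a measured binding site.

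Against Col-0, 5 of the 10 members were called in both 35S:KLU lines. ABCG40 and BGLU18 rose, where 5.01% of all tested genes did, and NCED2, NCED3 and ABA1 fell, where 4.13% did. A tested gene had to reach 0.5 FPKM in 3 libraries, and NCED2 did so only in Col-0, so its fall was fixed beforehand. The members were also chosen with earlier results of these data known, so their count beside the background is a description. In the single lines, 5 members were called in 35S:KLU1 and 6 in 35S:KLU2, beside 11.7% and 16.0% of all tested genes. Against klu, ABCG40 and BGLU18 rose again and ABA1 fell, with a background of 8.73% higher and 5.97% lower in both lines, and with 18.7% and 22.1% of genes called in 35S:KLU1 and in 35S:KLU2. Between klu and Col-0, 0 members were called by limma, beside 0.0610% of tested genes, and 4 had an unadjusted p under 0.05 (NCED2, NCED3, BGLU18 and ABCG40). Between the lines, 0 members were called, beside 0.0102% of genes, and 0 had an unadjusted p under 0.05.

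The background moved without klu replicate 1. Against klu, 6.47% of 19628 tested genes were then higher in both lines and 7.98% lower, so that lower genes became the more frequent, while the same 3 members were called. Against Col-0, 8.62% were higher and 6.84% lower, and 19.9% of genes were called in 35S:KLU1 and 25.3% in 35S:KLU2. Of the members 6 were then called in both lines, CYP707A3 in addition.

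**Figure D1:**
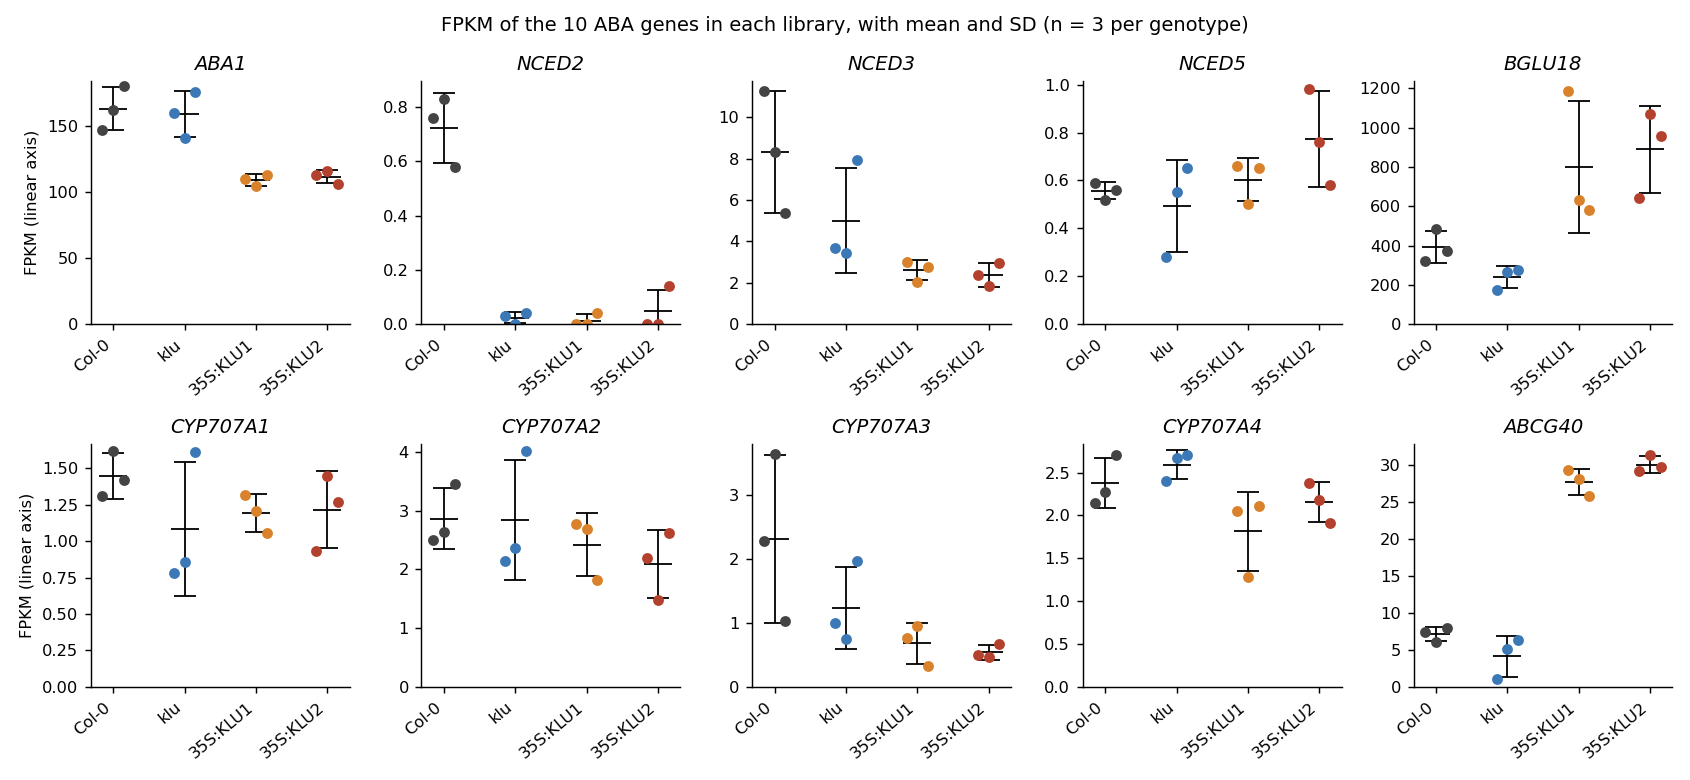
FPKM (vertical axis, linear and starting at 0) of each of the 10 genes in every library, with points for plants, bars for the mean and SD of 3, and columns for genotypes. ABCG40 lies at 25.75 to 31.30 in the 6 libraries of the lines and at no more than 7.90 in Col-0 and klu, and NCED2 is above 0.14 in Col-0 alone.

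ABA1 was the most abundant gene of synthesis among the members. It lies on chromosome 5 (26753469 to 26757402, minus strand) with 16 exons. Its FPKM was 147.42, 162.61 and 180.67 in Col-0, 160.10, 141.59 and 176.31 in klu, 109.82, 104.55 and 113.22 in 35S:KLU1 and 112.97, 116.24 and 106.43 in 35S:KLU2. All 6 libraries of the lines were below all 6 of Col-0 and klu, which overlapped each other. The mean of both lines was lower than Col-0 by a log2 difference of -0.56 ± 0.08 (SE), with an adjusted p of 0.00318 in 35S:KLU1 and 0.00317 in 35S:KLU2. Against klu the difference was -0.52 ± 0.08, with adjusted p of 0.00227 and 0.00275, and it was -0.51 ± 0.09 without klu replicate 1. The median difference over all tested genes was 0.03 against Col-0 and 0.04 against klu.

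Of 12 enzymes of carotenoid synthesis and the xanthophyll cycle, the lutein branch included and all tested, 5 fell against Col-0 and 4 against klu, and 0 rose in either comparison. Of all tested genes, 4.13% fell against Col-0 and 5.97% against klu, or 7.98% against klu without klu replicate 1. This list too was chosen with earlier results known. Their median difference was -0.22 against Col-0 and -0.28 against klu. The lycopene beta-cyclase LYC had 44.75 to 47.24 FPKM in Col-0 and 31.77 to 37.72 in the lines, a difference of -0.42 ± 0.06 (adjusted p = 0.00216 in 35S:KLU1 and 0.00428 in 35S:KLU2). The beta-carotene hydroxylase BCH1, which makes zeaxanthin, differed by -0.42 ± 0.09 (adjusted p = 0.0170 and 0.0287). PDS3, ZDS and the lycopene epsilon-cyclase LUT2, the entry to lutein, fell by less, with differences of -0.25 ± 0.06, -0.24 ± 0.05 and -0.24 ± 0.06 against Col-0. LYC, LUT2, LUT1 and BCH1 fell against klu, with or without klu replicate 1.

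The summed level of the mesophyll markers was 64040 to 68700 FPKM in Col-0, 63290 to 76460 in klu and 54230 to 59940 in the lines, and the marker RCA fell by a log2 difference of -0.57 ± 0.10 against Col-0. It was 1 of 5 such markers that fell against Col-0, and 2 of 5 fell against klu, or RCA alone without klu replicate 1. The shares over all tested genes were 4.13% against Col-0 and 5.97% against klu. The part of these markers in the lower level of ABA1 and of the carotenoid enzymes was not tested.

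Among the NCED genes, NCED3, the isoform that responds to drought, was the main transcript in every library. It lies on chromosome 3 (4831286 to 4834015, minus strand) in 1 exon, as NCED2 and NCED5 do. Its FPKM was 11.28, 8.32 and 5.38 in Col-0, 3.67, 3.42 and 7.94 in klu, 2.99, 2.06 and 2.77 in 35S:KLU1 and 2.37, 1.82 and 2.96 in 35S:KLU2. Every library of the lines was below every other library, while the range of Col-0 and that of klu overlapped through klu replicate 3. The mean of both lines was lower than Col-0 by -1.38 ± 0.24 on the log2 scale (adjusted p = 0.0107 in 35S:KLU1 and 0.00643 in 35S:KLU2), or 3.34-fold in mean FPKM. Against klu neither line was called alone (adjusted p = 0.119 and 0.0697), whereas the mean of both lines, at -0.72 ± 0.24, was just under the threshold (adjusted p = 0.0462). That call was kept on leaving out 4 of the 12 libraries in turn, with -0.86 ± 0.28 (adjusted p = 0.0434) without klu replicate 1 and -0.39 ± 0.21 (adjusted p = 0.202) without klu replicate 3. Of the difference between klu and Col-0, -0.66 ± 0.28, the adjusted p was 0.785, and without klu replicate 1 it was -0.52 ± 0.31 (adjusted p = 0.631).

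NCED2 was low throughout and was above 0.5 FPKM only in Col-0. It lies on chromosome 4 (10142255 to 10144646, plus strand) and had 0.76, 0.83 and 0.58 FPKM in Col-0, against 0.03, 0 and 0.04 in klu, 0, 0 and 0.04 in 35S:KLU1 and 0, 0 and 0.14 in 35S:KLU2. The gene passed the filter of 0.5 FPKM in 3 libraries through Col-0 alone, so it had to differ there, and its call is given as a description. Its log2 difference was -0.74 ± 0.11 in the lines, with adjusted p of 0.00435 in 35S:KLU1 and 0.00418 in 35S:KLU2. In klu it was -0.75 ± 0.13 with an adjusted p of 0.0946, so a level near 0 was found in klu as well as in the lines, and the lines did not differ detectably from klu (0.01 ± 0.11). The size of these differences depends on the pseudocount, and with 0.1 in place of 1 they were -2.74 ± 0.55 in the lines and -2.74 ± 0.63 in klu (adjusted p = 0.298). Without this gene, the members called in both lines against Col-0 were 4 of 9.

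NCED5, on chromosome 1 (10571310 to 10573365, plus strand), did not pass the test in any comparison. It was at 0.52 to 0.59 FPKM in Col-0, 0.28 to 0.65 in klu, 0.50 to 0.66 in 35S:KLU1 and 0.58 to 0.98 in 35S:KLU2, and all 4 ranges overlapped. The difference of both lines against Col-0 was 0.11 ± 0.12, with adjusted p of 0.887 and 0.403. The coding sequences of NCED2, NCED3 and NCED5 were 68.7% to 73.0% identical over their aligned bases and shared no identical run over 38 bases.

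The vascular markers, of the tissue where NCED3 is mainly expressed, summed to 307.9 to 352.0 FPKM in Col-0, 338.9 to 419.0 in klu and 288.9 to 332.9 in the lines. Of 7 such markers, XCP1 fell against Col-0 (-0.46 ± 0.08), 4 fell against klu (3 without klu replicate 1), and 0 rose in both lines. Beside them, 4.13% of all tested genes fell against Col-0 and 5.97% against klu. The list was mixed, as SWEET12 was higher in 35S:KLU2 alone, by 0.72 against Col-0 (adjusted p = 0.0103) and 0.63 against klu (0.0143). APL and SWEET11 differed from Col-0 by 0.04 ± 0.09 and 0.02 ± 0.13. Their part in the level of NCED3 was not tested.

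Summed over NCED2, NCED3 and NCED5, the level was 9.61 ± 3.06 FPKM in Col-0, 5.53 ± 2.69 in klu, 3.22 ± 0.58 in 35S:KLU1 and 3.20 ± 0.56 in 35S:KLU2 (mean ± SD, n = 3). The sum of every library of the lines lay below 3.97, the lowest value in klu. NCED3 made up 82.5% to 89.3% of the sum in Col-0 and 70.5% to 81.9% in the lines, and NCED5 4.67% to 8.59% and 15.8% to 29.5%, at a level of NCED5 itself that was not called different. The seed isoforms NCED6 and NCED9 were at 0 in all libraries apart from 0.03 FPKM of NCED9 in 2 libraries of 35S:KLU1. Of the 3 carotenoid dioxygenases of this list that could be tested (CCD1, CCD4 and CCD8), 0 were called in both lines against Col-0, beside 9.13% of all tested genes. CCD4, which cuts other carotenoids, was called lower than Col-0 in 35S:KLU2 (adjusted p = 0.0417) and not in 35S:KLU1 (0.0887). It fell against klu by -0.38 ± 0.10, where 5.97% of all tested genes fell, and without klu replicate 1 it was not called (-0.29 ± 0.10).

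**Figure D2:**
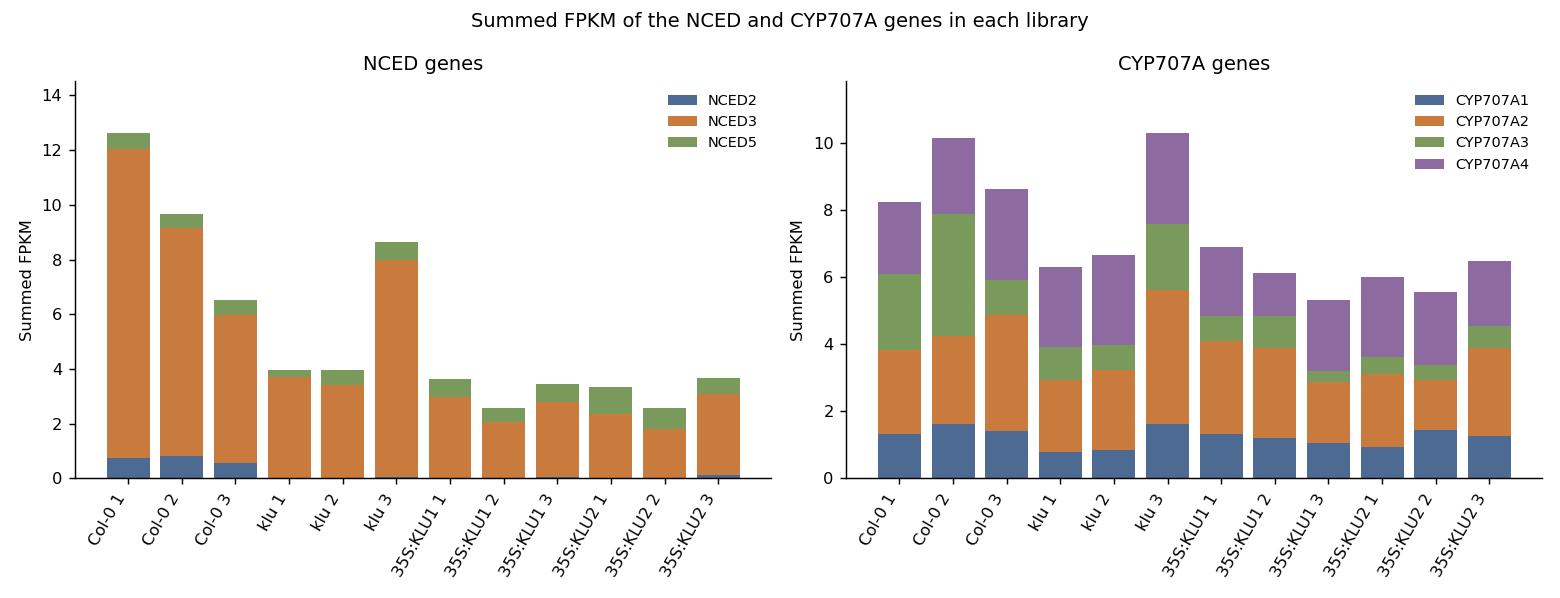
Summed FPKM (vertical axis, from 0) of the 3 NCED genes and of the 4 CYP707A genes in each of the 12 libraries, stacked by gene. NCED3 carries most of the NCED sum in every library, and the 6 libraries of the lines are the lowest, whereas the CYP707A sum is shared by all 4 genes.

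Of the other genes of ABA synthesis, ABA4, which acts before the cleavage by NCED, and ABA2, AAO3 and ABA3, which act after it, 0 of 4 were called in both lines against Col-0 or against klu, with median differences of 0.04 and -0.06. ABA3, which sulfurates the cofactor of the ABA aldehyde oxidase, was at 3.88 to 4.19 FPKM in Col-0 and 4.34 to 5.80 in the lines, a difference of 0.28 ± 0.09 that was called in 35S:KLU2 (adjusted p = 0.0482) and not in 35S:KLU1 (0.211). ABA2 and AAO3 differed from Col-0 by -0.11 ± 0.09 and 0.10 ± 0.07. Of all tested genes, 9.13% were called in each line in the same direction with Col-0 as reference, and 14.7% with klu. The count of 0 in these 4 genes is therefore close to the background.

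BGLU18, a beta-glucosidase that is held in endoplasmic reticulum (ER) bodies and frees ABA from its glucose ester, was the most abundant member. It lies on chromosome 1 (19514989 to 19518411, plus strand) with 12 exons. Its FPKM was 322.80, 481.69 and 369.84 in Col-0, 175.38, 266.95 and 274.26 in klu, 1186.50, 630.66 and 582.73 in 35S:KLU1 and 641.18, 1067.49 and 957.78 in 35S:KLU2. The levels stood in order without overlap, klu lowest, Col-0 between and both lines highest, and within each line the plants ranged widely. The mean of both lines exceeded Col-0 by 1.07 ± 0.24 on the log2 scale, or 2.16-fold in mean FPKM, with an adjusted p of 0.0431 in 35S:KLU1 and 0.0162 in 35S:KLU2. The excess over klu was 1.79 ± 0.24, or 3.54-fold, with adjusted p of 0.00204 and 0.000903, and 1.58 ± 0.26 without klu replicate 1. The step between klu and Col-0 was -0.72 ± 0.28 with an adjusted p of 0.760, or -0.51 ± 0.29 (adjusted p = 0.620) without klu replicate 1.

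The call of BGLU18 against Col-0 was close to the threshold in 35S:KLU1. It was lost on leaving out any 1 of 7 libraries (each Col-0 library, klu replicate 2, 35S:KLU1 replicates 1 and 2, and 35S:KLU2 replicate 3), with log2 differences of 0.65 to 1.16 and adjusted p of 0.0243 to 0.149 over all 12 single omissions. In 35S:KLU2 it was lost without Col-0 replicate 1, 35S:KLU2 replicate 2 or 35S:KLU2 replicate 3, with differences of 1.02 to 1.39. Against klu it was kept in both lines in every such fit.

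The gene next to BGLU18, TSA1, moved with it. TSA1 encodes an ER body protein and starts 2191 bases beyond the end of BGLU18, on the same strand and with 0 annotated genes between them. It had 30.53 to 45.96 FPKM in Col-0, 19.55 to 28.57 in klu and 50.26 to 93.49 in the lines, a difference of 0.86 ± 0.20 from Col-0 (adjusted p = 0.0498 in 35S:KLU1 and 0.0173 in 35S:KLU2). MEB1, which encodes a membrane protein of the ER body and lies on chromosome 4, rose by 1.10 ± 0.21 (adjusted p = 0.0114 and 0.0135). Of 8 ER body genes, 6 were tested, and these 2 rose against Col-0 and against klu while 0 fell in the fit of all 12 libraries. Among all tested genes, 5.01% rose against Col-0 and 8.73% against klu. The main beta-glucosidase of root and seedling ER bodies, BGLU23 (PYK10), was at 18.19 to 21.81 FPKM in Col-0 and 7.33 to 15.31 in the lines, and its scaffold protein NAI2 at 6.43 to 8.05 and 3.71 to 5.62. Neither was called (-0.99 ± 0.46 and -0.59 ± 0.28), and BGLU23 ranged from 7.03 to 55.03 over the klu libraries. Without klu replicate 1, TSA1 and MEB1 rose against klu by 1.25 ± 0.22 and 1.24 ± 0.22, and BGLU23 and NAI2 fell, by -2.16 ± 0.21 and -1.20 ± 0.13.

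A list of 4 other genes of ABA release and of the opposite reaction, the glucosylation of ABA, was tested. Of these, 1 rose against Col-0, and against klu 1 rose and 1 fell. Over all tested genes, 5.01% rose and 4.13% fell against Col-0, and 8.73% rose and 5.97% fell against klu. UGT71B6, which glucosylates ABA, was at 2.45 to 3.03 FPKM in Col-0, 1.71 to 2.61 in klu and 5.63 to 7.62 in the lines, without overlap between the lines and either of the others. It rose by 0.98 ± 0.11 against Col-0 (adjusted p = 0.00143 in 35S:KLU1 and 0.00112 in 35S:KLU2) and by 1.25 ± 0.11 against klu. UGT71C5, another glucosyltransferase known to store ABA in leaves, was at 20.67 to 25.88 FPKM in all 12 libraries and differed from Col-0 by 0.06 ± 0.08. UGT75B1, a further glucosyltransferase of this list, was at 12.86 to 19.90 FPKM and was not called against Col-0 (adjusted p = 0.890 in 35S:KLU1 and 0.886 in 35S:KLU2). BGLU33, a vacuolar enzyme that also frees ABA from its glucose ester, did not differ detectably from Col-0 (-0.06 ± 0.07) and fell against klu by -0.32 ± 0.07. Without klu replicate 1 UGT71B6 rose against klu by 1.24 ± 0.13, while BGLU33 was no longer called in 35S:KLU2 (adjusted p = 0.0558).

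ABCG40 had the largest differences of the members in log2(FPKM + 1). It lies on chromosome 1 (5331858 to 5338326, minus strand) with 22 exons, and its FPKM was 7.37, 6.05 and 7.90 in Col-0, 1.04, 5.10 and 6.32 in klu, 29.27, 28.01 and 25.75 in 35S:KLU1 and 29.08, 31.30 and 29.63 in 35S:KLU2. The lines lay within a narrow band far above every other library, and klu replicate 1 was far below its group. Both lines exceeded Col-0 by 1.88 ± 0.30 on the log2 scale, or 4.06-fold in mean FPKM, with adjusted p of 0.00671 in 35S:KLU1 and 0.00407 in 35S:KLU2. Against klu the difference was 2.73 ± 0.30, or 6.94-fold, with adjusted p of 0.000592 and 0.000353, and 2.16 ± 0.10 without klu replicate 1. Between klu and Col-0 it was -0.84 ± 0.34 (adjusted p = 0.766), and -0.27 ± 0.11 (adjusted p = 0.488) without that library. With a pseudocount of 0.1 the lines differed from Col-0 by 2.01 ± 0.40, less than in NCED2, and from klu by 3.10 ± 0.40.

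The summed level of the guard-cell markers was 143.3 to 166.6 FPKM in Col-0, 150.6 to 218.0 in klu and 99.88 to 130.4 in the lines. Most of this sum was GC1, at 93.18 to 114.58 FPKM in Col-0, 99.80 to 160.04 in klu and 60.41 to 84.63 in the lines. KAT1, a potassium channel of guard cells, was the 1 of 7 that fell against Col-0 (-0.54 ± 0.10), and KAT1, FAMA, GC1 and KAT2 fell against klu, with or without klu replicate 1. None of the 7 rose in either comparison. Over all tested genes, 4.13% fell against Col-0 and 5.97% against klu. The part of these markers in the level of ABCG40 was not tested.

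Other transporters showed no change of this size. Of 5 other ABA transporters, 4 were tested and 0 were called in both lines in either comparison. Over all tested genes, 9.13% were so called against Col-0 and 14.7% against klu, so 0 of 4 is close to the background. The exporter ABCG25 was at 5.66 to 7.26 FPKM in Col-0 and 6.26 to 7.65 in the lines, and the importer NPF4.6 at 20.80 to 23.98 and 20.35 to 23.79. Of 12 other full-size ABCG transporters, the subfamily to which ABCG40 belongs, 7 were tested. ABCG34 rose by 0.34 ± 0.07 and ABCG32, a transporter of cutin precursors, fell by -0.26 ± 0.05 against Col-0. Against klu, ABCG34 and ABCG36, which acts in defence, rose by 0.46 ± 0.07 and 0.50 ± 0.07, and ABCG32 fell by -0.20 ± 0.05. The same 3 genes were called without klu replicate 1. Of all tested genes, 5.01% rose and 4.13% fell against Col-0, and 8.73% rose and 5.97% fell against klu.

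Of the CYP707A genes, which inactivate ABA, CYP707A3 had the largest difference from Col-0. It lies on chromosome 5 (18368532 to 18371021, minus strand), and its FPKM was 2.27, 3.63 and 1.02 in Col-0, 0.99, 0.74 and 1.96 in klu, 0.76, 0.95 and 0.33 in 35S:KLU1 and 0.49, 0.46 and 0.67 in 35S:KLU2. All libraries of the lines were below all of Col-0, by a small gap to Col-0 replicate 3, and klu overlapped both. It fell in 35S:KLU2 (-1.02 ± 0.28, adjusted p = 0.0283), whereas 35S:KLU1 just missed the threshold (-0.91 ± 0.28, adjusted p = 0.0545), and the lines did not differ detectably (-0.11 ± 0.28). The call in 35S:KLU2 was lost without any 1 of Col-0 replicates 1 and 2 and the 3 libraries of 35S:KLU2, with adjusted p of up to 0.107. With a pseudocount of 0.1 the differences were -1.76 ± 0.48 in 35S:KLU2 (adjusted p = 0.0298) and -1.56 ± 0.48 in 35S:KLU1 (adjusted p = 0.0584). Without klu replicate 1, 35S:KLU1 was called against Col-0 as well (adjusted p = 0.0449). Against klu the adjusted p was 0.377 and 0.224, and the difference of both lines without klu replicate 1 was -0.51 ± 0.29 (adjusted p = 0.229).

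The other members of this family were not called in any comparison. CYP707A1, on chromosome 4 (10521259 to 10523961, plus strand), was at 1.31 to 1.62 FPKM in Col-0, 0.78 to 1.61 in klu and 0.93 to 1.45 in the lines, a difference from Col-0 of -0.15 ± 0.14. CYP707A2, known for its role in seeds and on chromosome 2 (12494826 to 12499723, minus strand), was at 2.5 to 3.46, 2.14 to 4.01 and 1.47 to 2.77, a difference of -0.26 ± 0.18. CYP707A4, on chromosome 3 (6673689 to 6676521, minus strand), was at 2.15 to 2.71, 2.40 to 2.71 and 1.28 to 2.38, with differences of -0.19 ± 0.12 from Col-0 and -0.28 ± 0.12 from klu, where the adjusted p was 0.0816 in 35S:KLU1 and 0.349 in 35S:KLU2. CYP707A1 and CYP707A3 are the closest pair, with 82.7% of aligned coding bases identical and an identical run of 44 bases, and how fragments within such a run were divided was not tested.

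The summed level of the 4 CYP707A genes was 8.997 ± 1.017 FPKM in Col-0, 7.747 ± 2.209 in klu, 6.11 ± 0.795 in 35S:KLU1 and 6.003 ± 0.4501 in 35S:KLU2 (mean ± SD, n = 3). The highest sum in the lines, 6.90, was below the lowest in Col-0, 8.23. The sums of the lines ran from 5.31 to 6.90 and those of klu from 6.31 to 10.29, so these ranges overlapped only in part. CYP707A3 made up 11.9% to 35.8% of the sum in Col-0 and 6.22% to 15.5% in the lines. In Col-0 the order of the means was CYP707A2, CYP707A4, CYP707A3 and CYP707A1, and the ranges of CYP707A4 and CYP707A3 overlapped, as did those of CYP707A2 and CYP707A4 and those of CYP707A3 and CYP707A1. Across roles, the levels per length in Col-0 ran from BGLU18 and ABA1, through NCED3 and ABCG40, which overlapped, to CYP707A2, CYP707A4, CYP707A3 and CYP707A1, and then NCED2 and NCED5, which also overlapped.

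**Figure D3:**
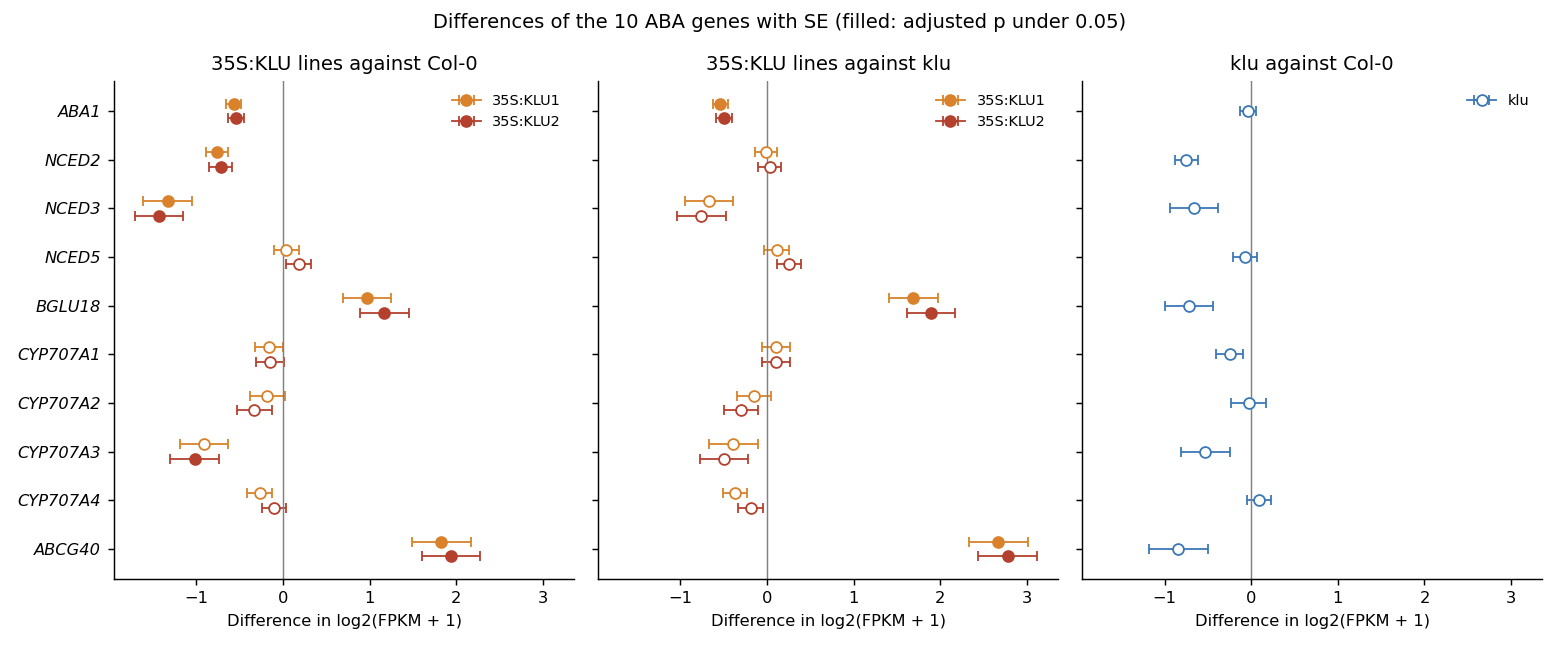
Differences in log2(FPKM + 1) with SE (horizontal axis) of the 10 genes for each line against Col-0 (left), for each line against klu (middle) and for klu against Col-0 (right), with filled points for adjusted p under 0.05. Both lines lie close together for every gene, and no point is filled between klu and Col-0.

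Transcripts that ABA induces were followed beside the hormone genes. Of 13 such genes, 12 were tested and 0 were called in both lines against Col-0 or klu, with median differences of -0.08 and 0.20. The shares over all tested genes were 9.13% against Col-0 and 14.7% against klu. A count of 0 in a list this short is therefore a description. RD29A, which cold and drought also induce, was at 771.99 to 919.16 FPKM in Col-0, 459.51 to 895.50 in klu and 387.63 to 655.94 in the lines, a difference of -0.64 ± 0.18 that was called in 35S:KLU1 alone (adjusted p = 0.0214, against 0.15 in 35S:KLU2). HB7, a transcription factor gene induced by ABA, was at 17.30 to 23.33 FPKM in Col-0 and 19.89 to 50.10 in the lines, a difference of 0.70 ± 0.29 with adjusted p of 0.338 and 0.102. Against klu HB7 differed by 1.02 ± 0.29 and was called in 35S:KLU2 (adjusted p = 0.0264) and not in 35S:KLU1 (0.0977). Without klu replicate 1 that difference was 0.74 ± 0.30, with adjusted p of 0.264 in 35S:KLU1 and 0.0870 in 35S:KLU2. RAB18 overlapped among all genotypes, at 50.32 to 102.52 FPKM.

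**Figure D4:**
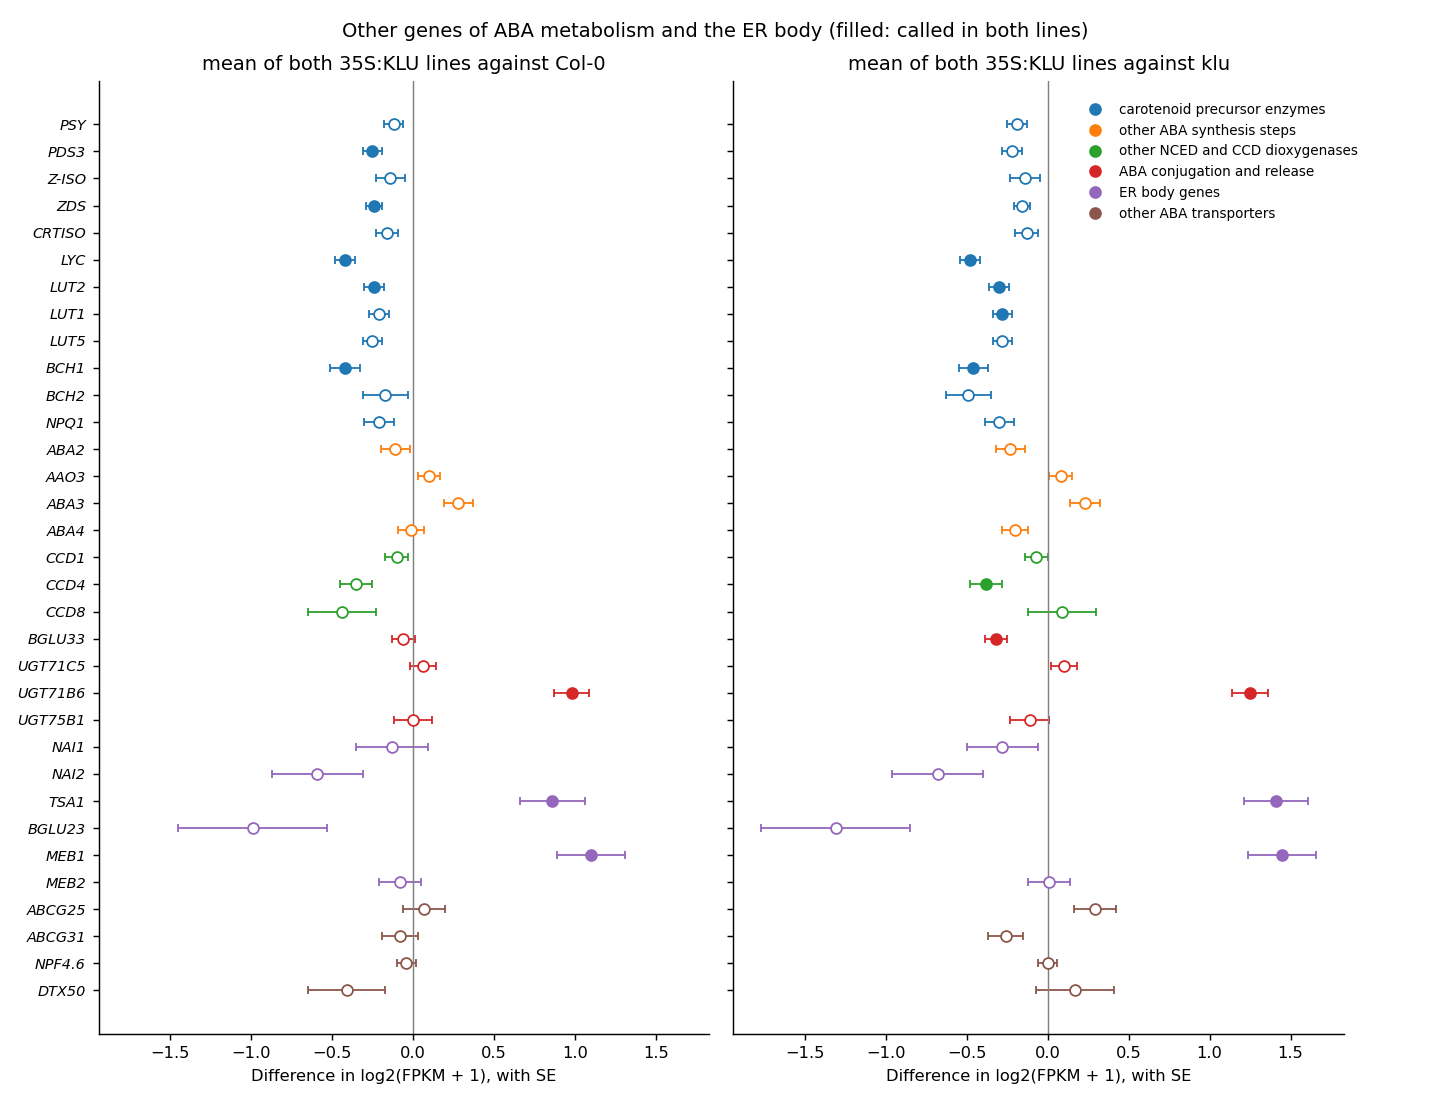
Differences in log2(FPKM + 1) with SE (horizontal axis) of the tested genes of ABA metabolism, transport and the ER body, for the average of 35S:KLU1 and 35S:KLU2 against Col-0 (left) and klu (right). Colours give the list, filled points the genes called in both lines in the same direction, with UGT71B6, TSA1 and MEB1 to the right and carotenoid enzymes to the left.

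For the 4 members whose genotype means spanned at least 1 on the log2 scale, the genes with the most similar pattern were found among the 896 tested genes that spanned as much. Likeness was the root mean square difference of log2(FPKM + 1) over the 12 libraries after each gene was centred on its own mean, and it is a description, since the libraries share genotypes. Nearest to BGLU18 was its neighbour TSA1 (0.178), before MBP2, a myrosinase-binding protein gene (0.181), and HPL1, a hydroperoxide lyase gene (0.214). MBP2 was at 8.23 to 10.13 FPKM in Col-0, 2.30 to 5.85 in klu and 11.62 to 23.31 in the lines, and like BGLU18 it was highest in 35S:KLU1 replicate 1 within that line.

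ABCG40 was nearest to YLS9 (NHL10; 0.166), AT3G13610, the scopoletin synthesis gene F6'H1 (0.172), and AT3G22600, a lipid transfer protein gene (0.194). YLS9 was at 3.13 to 5.49 FPKM in Col-0 and 14.67 to 16.95 in the lines, and in klu it ranged from 0.52 to 3.94. All 3 were lowest in the same library as ABCG40, klu replicate 1.

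NCED3 was nearest to SZF1, a zinc finger protein gene (0.234), TCH2, a calmodulin-like gene known for its induction by touch (0.252), and AT1G20823 (0.260). CYP707A3 was nearest to SZF1 as well (0.189), then to TCH4, an enzyme of xyloglucan known for its induction by touch (0.274), and STZ, a zinc finger protein gene (0.293). SZF1 was at 27.18 to 55.37 FPKM in Col-0, 22.08 to 43.30 in klu and 16.97 to 23.35 in the lines. Within klu, NCED3, CYP707A3 and the 5 genes nearest to them were all highest in replicate 3. TCH2 was at 40.20 to 69.62 FPKM in Col-0 and 17.63 to 23.36 in the lines.

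**Figure D5:**
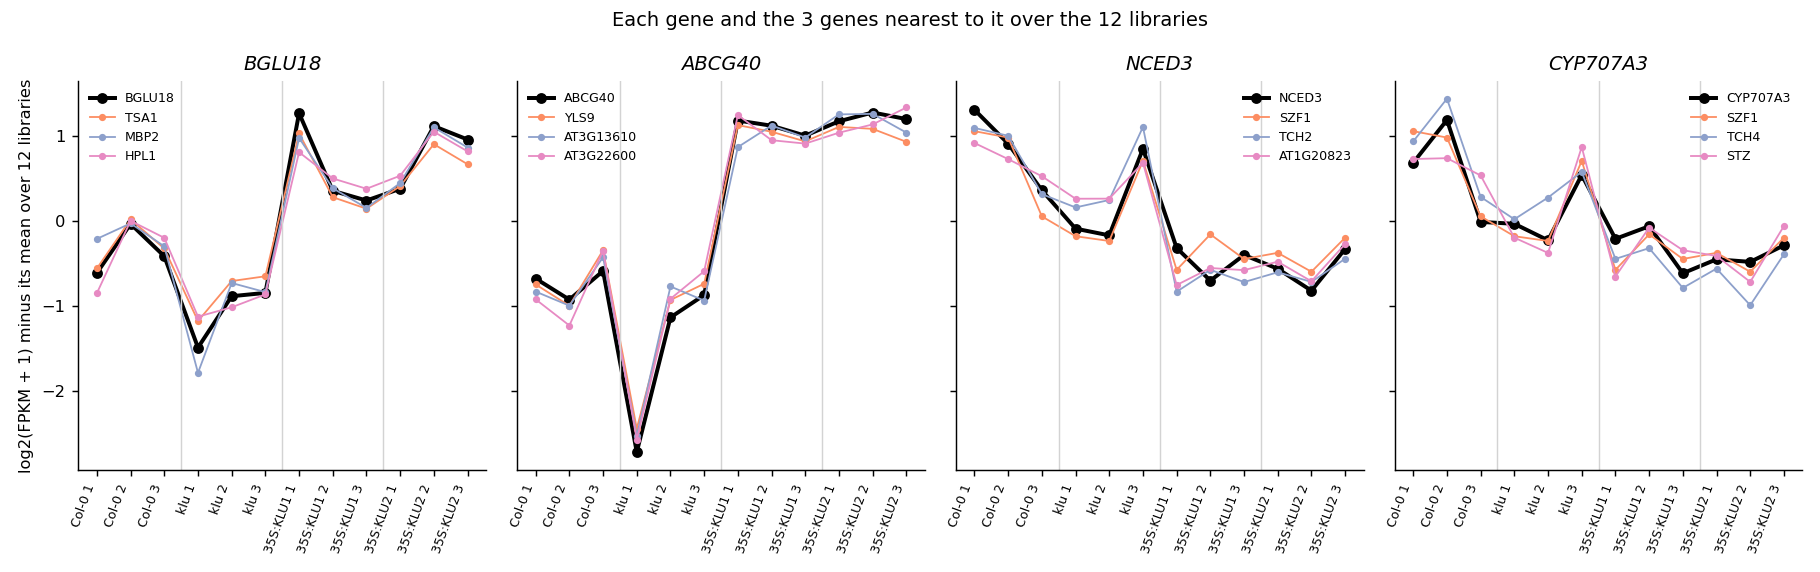
Centred log2(FPKM + 1) (vertical axis) of BGLU18, ABCG40, NCED3 and CYP707A3 (black) and of the 3 genes nearest to each (colours) in the 12 libraries (horizontal axis), with grey lines between genotypes. ABCG40 and its neighbours share the low value of klu replicate 1, and NCED3, CYP707A3 and theirs share the high value of klu replicate 3.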

How the data were processed

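FPKM values of 33323 genes, deposited as 1 table for the 12 libraries, were made by the authors from strand-specific, paired-end poly(A) reads mapped to TAIR10, with STAR and RSEM 1.2.22 named in the submitters' processing notes. The authors also deposited log2 fold changes, their standard errors, p-values and adjusted p-values of their own DESeq2 comparisons, and none of these were read. Genes that reached 0.5 FPKM in 3 or more libraries, 19660 in all, were kept, and their log2(FPKM + 1) was fitted with limma 3.58.1 in R 4.3.3, as 1 model of 4 genotype means, letting the variance follow expression (limma-trend), with Benjamini-Hochberg adjustment over the whole set of genes kept. All 10 members were tested. The effect given is the mean of both lines, and shared Col-0 and klu libraries make the comparisons depend on each other. The script was tested on simulated data. The members and the 13 gene lists were chosen with earlier results of these data known. Named were all members, KLU, the genes of each list called in both lines with the largest differences, any gene of a list of at most 13, and the 3 genes nearest to a member. Alternatives were a pseudocount of 0.1, no filter, 3 scalings, a replicate block, fits of the compared groups alone, library weights and the omission of each library. Sequences are from RefSeq TAIR10.1, where 32835 of the genes were found. Hormone contents were not used here.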

Additional observations from a re-analysis of the deposited data

How the results depend on the processing

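Of 1572 log2 differences of single members under the alternative settings, 1529 kept their side of the threshold (25 of them uncalled values that changed sign), 31 lost a call, 12 gained one and 0 reversed a called direction. The members called in both lines against klu were 3 in every alternative, and those against Col-0 were 4 to 6 in the 8 alternatives that keep all libraries and 3 to 6 on leaving out 1 library. The lowest value, 3, came without Col-0 replicate 1 or replicate 2, where BGLU18 lost its call and NCED2 fell below the filter and was not tested. The single-line counts against Col-0 ranged from 3 to 6 in 35S:KLU1 and from 3 to 6 in 35S:KLU2 over those omissions. With no filter on low values, 1 member was called between klu and Col-0, NCED2 (-0.75 ± 0.06, adjusted p = 0.00131), in place of 0, and BGLU18 lost its call in 35S:KLU1 against Col-0 (adjusted p = 0.0778). Scaling by the median of ratios, scaling by the upper quartile and library weights each called CYP707A3 in 35S:KLU1 too (adjusted p = 0.0493, 0.0440 and 0.0127), so that 6 members were called in both lines. With the upper quartile NCED3 was called against klu in 35S:KLU2 (-0.84 ± 0.28, adjusted p = 0.0466) and CYP707A4 in 35S:KLU1 (-0.39 ± 0.13, adjusted p = 0.0430). With the replicate block, 4 members were called in both lines against Col-0, since BGLU18 in 35S:KLU1 had an adjusted p of 0.0602, and 3 against klu. Libraries with the same number deviated together no more than others did. Their correlations were -0.159 to 0.133 over 18 pairs, with 1 over 0.1. Those of the 36 pairs with different numbers were -0.145 to 0.173, with 3 over 0.1. Whether libraries of the same number shared their handling was not tested. With a pseudocount of 0.1 the difference of NCED2 from Col-0 was -2.74 ± 0.55 in place of -0.74 ± 0.11. The summed NCED and CYP707A levels moved by less than 1 SD under each scaling. The causes of these changes were not tested. Libraries of 3 plants per genotype and FPKM without counts limit the precision of genes near 1 FPKM, NCED2, NCED5 and CYP707A3 among them.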
